A study of Mus musculus with 6 samples.

Results

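Txnip, Arrdc3, Arrdc4, Mlxipl, Mlxip and Mlx are the 6 genes described here, out of 16640 genes counted in RNA from MIN6 cells. They were found by gene symbol in the counts of every library. They were chosen by values of these same libraries, namely the difference of replicate 3 from replicates 1 and 2 in each condition and the difference of Thada-activated from control cells within each replicate number. Both differences are therefore given below as a description, with no p-value for the 6 genes. Where it is said how many of the 6 met the criteria for a call, the share of all tested genes stands beside it and nothing is read from the count. All 6 passed the filter on low counts, which 12516 genes passed.

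MIN6 is a mouse beta-cell line derived from an insulinoma. The study asked, among other questions, what follows when transcription of the endogenous Thada gene is raised. Thada-activated cells stably carried lentiviral dCas9-VP64, a cutting-dead Cas9 fused to an activator, together with a guide RNA for the Thada promoter and the MS2-P65-HSF1 activator. Control cells carried dCas9 and a non-targeting guide. Each condition had 3 libraries, sequenced on the BGISEQ-500, and the lines are not described as clones. The study states in general that its cell experiments were repeated independently, but no source used here says that these libraries came from separate cultures, so p-values measure the spread between these libraries, which may be technical. The estimated counts of a library summed to between 17166511 and 17727004.

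The α-arrestins are adaptor proteins that recruit HECT-type ubiquitin ligases to membrane proteins such as glucose transporters. Txnip, the thioredoxin-interacting protein, is an α-arrestin that also binds thioredoxin. It restrains glucose uptake and is known in beta cells for its induction by glucose and for promoting apoptosis. Arrdc4 is a close relative, and Arrdc3 is a further arrestin-domain protein linked to the trafficking of β-adrenergic receptors. Mlxipl encodes ChREBP and Mlxip encodes MondoA, glucose-responsive transcription factors that bind E-boxes as heterodimers with Mlx. Txnip and Arrdc4 are among their best known target genes.

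The activated gene was measured first as a check of the labels. Levels are given as CPM, the counts of a gene relative to its library's TMM-scaled total, and the values of a condition are listed in the order of replicates 1, 2 and 3. Thada had levels of 28.0, 28.9 and 17.2 CPM among the controls. Its levels were 57.3, 56.2 and 49.1 CPM after activation. Every Thada-activated library lay above every control library. The log2 fold change was 1.13 ± 0.22 (SE), and an exact two-sided permutation test of 3 against 3 libraries gave p = 0.1, the smallest it can give.

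Both replicate 3 libraries stood apart from the other libraries. Over 12487 genes counted in every library, the root mean square log2 difference between a replicate 3 library and a replicate 1 or 2 library was 0.681 to 0.760, against 0.212 to 0.332 for all other pairs, including the pair of replicate 3 libraries. The insulin gene Ins2 took 10.2% of all counts in control replicate 3 and 8.36% in Thada-activated replicate 3, against 5.65% to 6.44% in the other libraries. The 20 genes with the most counts took 20.1% and 19.0% in the replicate 3 libraries, against 17.1% to 18.1% in the others. Setting replicate 3 against replicates 1 and 2 was decided after this separation had been seen, so a count of genes called in that contrast describes these libraries.

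Replicate 3 differed from replicates 1 and 2 in 3893 of 12516 genes, 31.1% of those tested, at an adjusted p under 0.05 and a fold change over 1.5. Of these, 1970 (15.7%) were higher and 1923 (15.4%) lower in replicate 3. Among the 6 genes 4 met the same criteria, with Txnip and Arrdc4 higher and Mlxipl and Mlx lower in replicate 3.

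Txnip had the widest span of the 6. Control cells gave 24.997, 26.2 and 311 CPM, from 427, 451 and 5432 counts. Thada-activated cells gave 27.9, 26.4 and 373 CPM, from 495, 460 and 6557 counts. The low libraries lay within 3 CPM of one another, and both replicate 3 libraries were far above them. Replicate 3 exceeded the mean of replicates 1 and 2 by 12.2-fold in control cells and 13.7-fold in Thada-activated cells. The fitted log2 fold change was 3.69 ± 0.06 (SE). Among 10715 tested genes with a mean of at least 5 CPM no gene had a higher value of this fold change, while 2 genes with lower means did.

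Arrdc4, the least abundant of the 6, was likewise highest in replicate 3. Control cells gave 4.86, 3.66 and 12.6 CPM, from 83, 63 and 219 counts. Thada-activated cells gave 3.94, 3.62 and 11.6 CPM, from 70, 63 and 204 counts. Both replicate 3 libraries lay above the other libraries, by 2.95-fold over the mean of replicates 1 and 2 in control cells and 3.07-fold in Thada-activated cells. The fitted log2 fold change was 1.59 ± 0.13 (SE).

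The length that the authors' FPKM assigned to Arrdc4, obtained by dividing its count by its FPKM and the library total, also varied. It was 2.48, 3.28 and 1.89 kb for the controls and 2.65, 2.53 and 2.11 kb after activation. The ratio of the longest to the shortest was 1.73, compared with a median of 1.03 over 10962 genes with at least 1 FPKM in every library and with at most 1.09 for the other 5 genes. On the FPKM scale Arrdc4 therefore spanned more than in CPM, from 1.12 FPKM in control replicate 2 to 6.55 FPKM in control replicate 3.

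Arrdc3 spanned less. Control cells gave 41.2, 44.2 and 47.5 CPM, and Thada-activated cells gave 31.6, 34.6 and 45.4 CPM. The 2 lowest values were those of Thada-activated replicates 1 and 2, and Thada-activated replicate 3 fell within the range of the control libraries. The replicate 3 log2 fold change was 0.30 ± 0.08 (SE), which did not reach the fold threshold.

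Mlxipl, encoding ChREBP, was the most abundant of the 6 per length outside replicate 3. Control cells gave 402, 345 and 131 CPM. Thada-activated cells gave 365, 417 and 159 CPM. Its replicate 3 libraries were the lowest of both conditions, with replicates 1 and 2 exceeding them by 2.85-fold in control cells and 2.46-fold in Thada-activated cells. The fitted log2 fold change was -1.40 ± 0.08 (SE). The counts are per gene, so transcripts from the upstream and the downstream start of Mlxipl were not separated.

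Mlx, the shared dimerization partner, was also lowest in replicate 3. Control cells gave 101, 101 and 46.8 CPM, and Thada-activated cells gave 93.2, 94.4 and 51.8 CPM. The replicate 3 values lay below all others, with a fitted log2 fold change of -0.98 ± 0.07 (SE). Mlxip, encoding MondoA, varied less. Control cells gave 65.7, 62.3 and 50.2 CPM, and Thada-activated cells gave 59.1, 63.2 and 47.1 CPM. Its log2 fold change of -0.36 ± 0.06 (SE) stayed under the fold threshold.

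**Figure D1:**
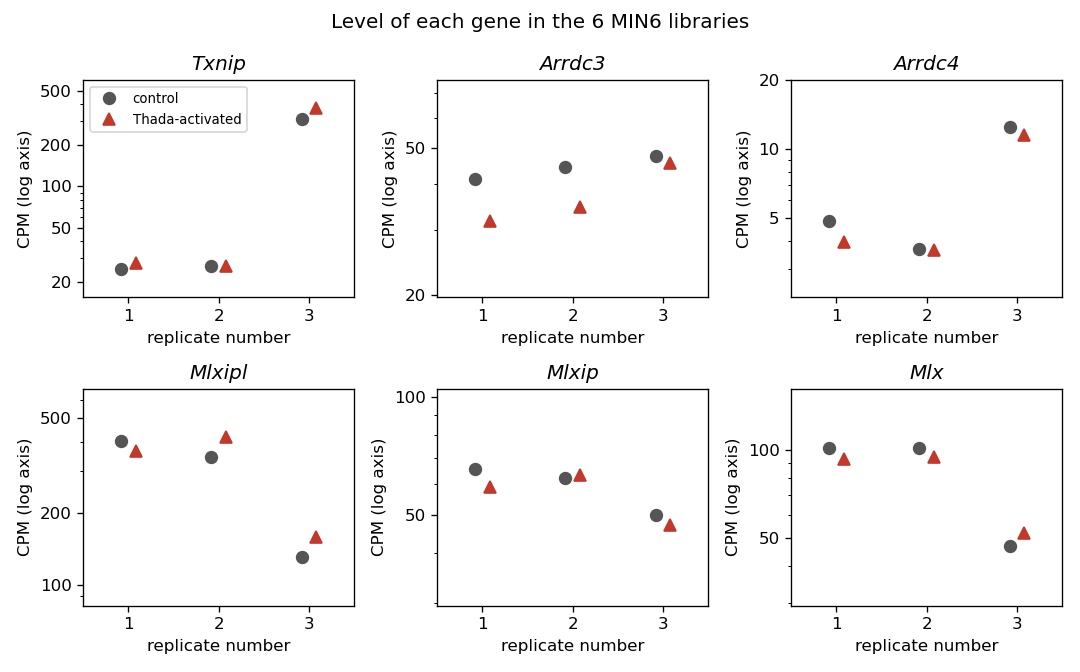
CPM, on a log axis that differs between panels, of each of the 6 genes against replicate number in control (circles) and Thada-activated (triangles) MIN6 libraries. Txnip reached 311 and 373 CPM in the replicate 3 libraries and 24.997 to 27.9 CPM elsewhere, while Mlxipl was 131 and 159 CPM in replicate 3 and 345 to 417 CPM elsewhere.

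Levels of different genes were compared per length, in the authors' FPKM. Over replicates 1 and 2 of both conditions (mean ± SD, n = 4), Mlxipl stood at 120 ± 10.05 FPKM and Mlx at 57.4 ± 2.45 FPKM. Txnip followed at 9.98 ± 0.494 FPKM, Arrdc3 at 9.59 ± 1.45 FPKM and Mlxip at 8.94 ± 0.330 FPKM, and each of these 3 overlapped its neighbour in that order within their spread. Arrdc4 was lowest at 1.495 ± 0.338 FPKM. In the replicate 3 libraries the order changed, with Txnip first at 116 FPKM in control and 143 FPKM in Thada-activated cells, ahead of Mlxipl at 40.6 and 49.96 FPKM and Mlx at 27.3 and 30.7 FPKM.

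The balance within each family shifted in the same libraries. Mlxipl exceeded Mlxip by 13.3-, 12.4- and 5.41-fold in FPKM among the controls, and by 13.2-, 14.8- and 7.45-fold after activation. Txnip made up 23.5%, 24.7% and 72.2% of the summed FPKM of the α-arrestin genes Txnip, Arrdc1, Arrdc2, Arrdc3 and Arrdc4 among the controls. After activation it made up 28.2%, 26.0% and 77.0%.

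Thada-activated cells were then compared with control cells. With condition alone in the model, edgeR called 0 of 12516 genes (0%), while 101 genes had an unadjusted p under 0.05 and DESeq2 called 5 (0.0399%). When replicate number entered the model as a block, 19 genes were called (0.152%), 13 of them higher in Thada-activated cells. With both replicate 3 libraries left out it was 68 (0.545% of 12480 tested). Thada itself was called by all of these except edgeR with condition alone. None of the 6 genes was called in any of these fits.

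For Txnip, Arrdc4, Mlxipl and Mlx, differences between conditions within a replicate number were smaller than those between replicate 3 and the other libraries of a condition. For Txnip the log2 difference of Thada-activated from control was 0.16, 0.01 and 0.26 in replicates 1, 2 and 3. The fitted log2 fold change of Txnip was 0.24 ± 1.44 (SE) with condition alone and 0.16 ± 0.07 (SE) with the replicate block. With condition alone the value was 2.47 without control replicate 3, -2.16 without Thada-activated replicate 3, -0.25 and -0.24 without control replicates 1 and 2, and 0.08 ± 0.08 (SE) without both replicate 3 libraries.

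Arrdc3 was lower in the Thada-activated library in all 3 pairs. Its log2 differences were -0.38, -0.35 and -0.07 in replicates 1, 2 and 3. The fitted log2 fold change was -0.25 ± 0.16 (SE), and -0.37 ± 0.07 (SE) without both replicate 3 libraries, which did not reach the fold threshold. It was -0.15 without Thada-activated replicate 1 and -0.42 without Thada-activated replicate 3. For Arrdc4 the pairs gave -0.30, -0.02 and -0.11 on counts of 63 to 219, and the fitted value was -0.14 ± 0.65 (SE). It was 0.58 without control replicate 3 and -0.89 without Thada-activated replicate 3, and it was also above 0 without Thada-activated replicate 1 (0.11) or 2 (0.14).

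The transcription factors changed sign between pairs formed by replicate number. Mlxipl differed by -0.14, 0.28 and 0.28 on the log2 scale in replicates 1, 2 and 3, with a fitted value of 0.10 ± 0.52 (SE). Mlx differed by -0.12, -0.10 and 0.15, and the fit gave -0.06 ± 0.37 (SE). Mlxip differed by -0.15, 0.02 and -0.09, and the fit gave -0.07 ± 0.16 (SE). Leaving out 1 library turned the sign of each of these fitted values. Mlxipl was -0.25 without control replicate 3 and -0.02 and -0.16 without Thada-activated replicates 1 and 2. Mlx was 0.11 without control replicate 1, 0.11 without control replicate 2 and 0.17 without Thada-activated replicate 3. Mlxip was 0.01 without control replicate 1 and 0.04 without Thada-activated replicate 3. The difference had one sign in all 3 pairs for 3 of the 6 genes, Txnip, Arrdc3 and Arrdc4, as it did for 33% of all tested genes. These signs depend on the numbering of replicates 1 and 2. With those numbers crossed between conditions, Mlxipl and Mlxip would no longer change sign between pairs, while Arrdc4 would. Txnip and Arrdc3 would still keep their sign, and Mlx would still change it. The conditions overlapped for all 6 genes, and 5.4% of tested genes had no overlap.

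Whether the replicate 3 difference was of the same size in both conditions was asked with a product term, which sets 1 replicate 3 library of each condition against the other and leaves 2 residual degrees of freedom among libraries. The lone libraries are thereby assumed to vary like replicates 1 and 2. It called 227 genes (1.81%) with edgeR and 42 with DESeq2, and the 6 genes were not among them. The log2 difference of replicate 3 from the mean of replicates 1 and 2 was 3.60 in control and 3.78 in Thada-activated cells for Txnip. The same pair of values was 1.56 and 1.62 for Arrdc4. It was 0.16 and 0.46 for Arrdc3, whose values lay furthest apart. It was -1.51 and -1.30 for Mlxipl, -1.11 and -0.86 for Mlx and -0.35 and -0.38 for Mlxip.

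Genes that act with the 6 were taken as 7 lists, 84 genes of which were tested. Over all tested genes the median replicate 3 log2 fold change was 0.00, with 15.7% called higher and 15.4% lower. None of the 84 was called between the conditions with condition alone or with the replicate block.

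Among the other α- and β-arrestins 2 of 4 tested genes rose in replicate 3, with a median log2 fold change of 0.59. Arrdc2, another α-arrestin, rose by 1.45 ± 0.13 (SE) on the log2 scale, from 3.60 to 4.27 CPM in replicates 1 and 2 to 11.01 and 10.1 CPM in the replicate 3 libraries. Arrb2, the β-arrestin that desensitizes G protein-coupled receptors, rose by 0.81 ± 0.07 (SE). Arrdc1 and Arrb1 gave 0.36 ± 0.07 and 0.11 ± 0.07 (SE) and were not called. Arrdc5 was not analysed here.

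Of the genes listed as ChREBP and MondoA targets, 23 were tested, and 9 rose and 4 fell in replicate 3, with a median of 0.50. Khk, the ketohexokinase of fructose metabolism, rose by 1.26 ± 0.10 (SE), from 9.42 to 11.4 CPM in replicates 1 and 2 to 25.002 and 24.4 CPM in the replicate 3 libraries. The circadian repressor Bhlhe40 rose by 1.41 ± 0.08 (SE) and the G-protein regulator Rgs16 by 1.45 ± 0.24 (SE). The Rgs16 value was 0.87 without Thada-activated replicate 3 and 0.75 with limma on FPKM. Fasn, encoding fatty acid synthase, went the other way, at 278 to 314 CPM in replicates 1 and 2 and 110 and 124 CPM in the replicate 3 libraries, a log2 fold change of -1.36 ± 0.07 (SE). Genes of this list moved in both directions. Thrsp and G6pc had too few counts to be tested.

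MAX, MYC and their partners bind E-boxes too. Of 10 tested genes of this network 3 rose and 1 fell in replicate 3, with a median of 0.50. Myc rose by 1.20 ± 0.13 (SE), Mycn rose by 0.69 ± 0.13 (SE), and Mga, a repressor that dimerizes with MAX, had a log2 fold change of -0.60 ± 0.06 (SE). Mga was not called without control replicate 2 (-0.58), without control replicate 3 (-0.54), without the 20 genes with the most counts in the library size (-0.56) or with limma on FPKM (-0.49). Mycn was not called with limma on FPKM (0.52).

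A further list held proteins that bind or modify the Mondo factors. Of 21 tested genes 1 rose and 3 fell, with a median of -0.11. Prkab2, a regulatory subunit of AMP-activated protein kinase, rose by 1.22 ± 0.07 (SE). The acetyltransferase Ep300, the O-GlcNAcase gene Mgea5 and the 14-3-3 protein Ywhab had log2 fold changes of -0.66 ± 0.06, -0.64 ± 0.06 and -0.61 ± 0.06 (SE). Ep300 was not called with limma on FPKM (-0.58), Mgea5 not without Thada-activated replicate 3 (-0.58), and Ywhab neither without control replicate 3 (-0.57) nor without the 20 genes with the most counts in the library size (-0.57). Prkag3 was not analysed here.

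The thioredoxin system, which Txnip binds, gave 2 genes higher and 2 lower out of 12 tested, with a median of 0.28. Prdx6, a peroxiredoxin, rose by 0.90 ± 0.06 (SE) and the thioredoxin reductase Txnrd3 by 0.74 ± 0.21 (SE). Mitochondrial thioredoxin reductase Txnrd2 had a log2 fold change of -1.19 ± 0.09 (SE), and sulfiredoxin Srxn1 one of -0.61 ± 0.07 (SE). Txnrd3 was not called without Thada-activated replicate 3 (0.57) or with limma on FPKM (0.37). Srxn1 was not called without control replicate 2 (-0.58), without control replicate 3 (-0.55) or without the 20 genes with the most counts in the library size (-0.57). The cytosolic thioredoxin Txn1 stood at 121 to 127 CPM in replicates 1 and 2 and 104 and 95.7 CPM in replicate 3, and was not called.

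The NEDD4 family of HECT ubiquitin ligases carries WW domains, through which its members bind α-arrestins. Of 7 tested, 3 fell and 0 rose in replicate 3, with a median of -0.37. Wwp2, Wwp1 and Smurf1 had log2 fold changes of -0.83 ± 0.08, -0.73 ± 0.08 and -0.73 ± 0.09 (SE). Smurf1 was not called with limma on FPKM (-0.57). Itch, a ligase known to bind Txnip, gave -0.37 ± 0.07 (SE) and was not called.

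Glucose entry and phosphorylation gave 1 gene higher and 1 lower of 7 tested, with a median of 0.12. Slc2a1, the glucose transporter GLUT1, was at 55.8 to 73.6 CPM in replicates 1 and 2 and at 31.1 and 25.4 CPM in replicate 3, a log2 fold change of -1.24 ± 0.08 (SE). Slc2a4, encoding GLUT4, was the gene called higher, from 12, 9 and 16 counts among the controls and 12, 8 and 35 counts after activation. That call rested on Thada-activated replicate 3, without which the log2 fold change of 1.27 ± 0.34 (SE) was 0.58 ± 0.52 (SE) and not called. It was also not called with limma on FPKM (0.31). Slc2a2, the islet transporter GLUT2, had too few counts to be tested.

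**Figure D2:**
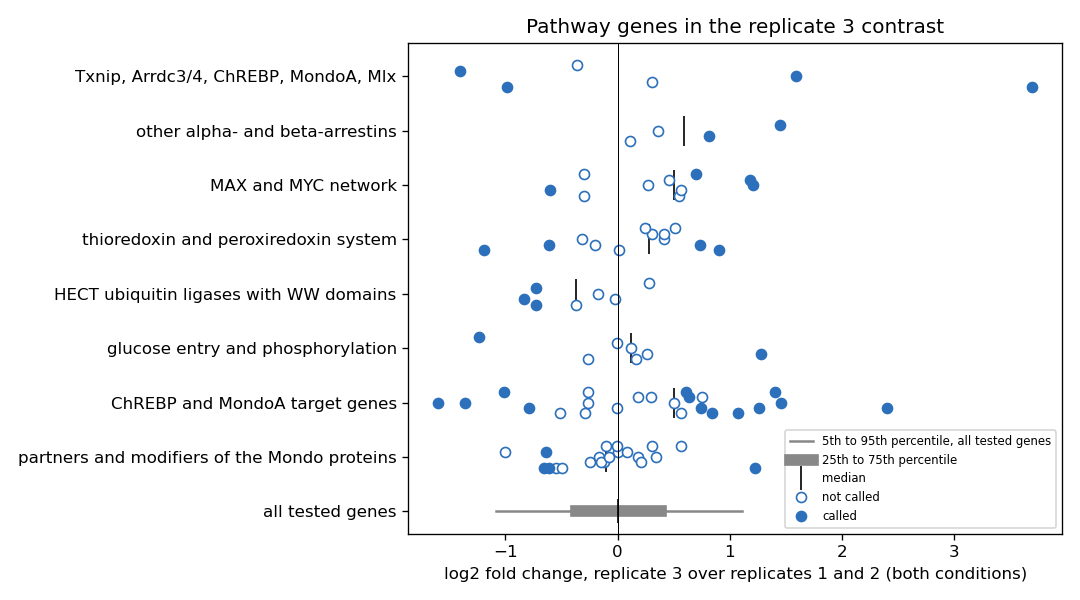
Log2 fold change of replicate 3 over replicates 1 and 2 for the 6 genes and each tested gene of 7 pathway lists (filled points called, open points not called, vertical ticks list medians), with percentiles of all 12516 tested genes in the lowest line. Txnip lies at 3.69, to the right of every listed gene, and the targets of ChREBP and MondoA lie on both sides of 0.

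Between conditions, the listed gene with the lowest unadjusted p in each list was not called. The smallest of these p-values was that of Arrb1, with a log2 fold change of -0.31 ± 0.11 (SE) and an adjusted p of 1 from edgeR's quasi-likelihood test. It was lower in Thada-activated cells in 3 of 3 pairs. Each gene named next also had one sign in all 3 pairs, as had 33% of all tested genes. With replicate numbers 1 and 2 crossed between conditions, Prdx5 alone of them would change sign. Slc2a3, the transporter GLUT3, gave -0.27 ± 0.12 (SE). Itch and Xpo1, the nuclear exporter of proteins, gave -0.18 ± 0.17 and -0.13 ± 0.09 (SE). Itch was -0.05 without Thada-activated replicate 3, -0.28 without Thada-activated replicate 2 and -0.11 without control replicate 2. Mycl gave 1.07 ± 0.65 (SE), Rgs16 gave 1.10 ± 0.62 (SE) and Prdx5, a peroxiredoxin, gave 0.12 ± 0.22 (SE). The Mycl value rested on few counts, 2, 6 and 11 among the controls and 12, 8 and 21 after activation. Without Thada-activated replicate 3 the value was -0.11 for Prdx5, 0.23 for Rgs16 and 0.62 for Mycl. With limma on FPKM it was 0.50 for Rgs16 and 0.15 for Mycl. Mycl was 0.66 without control replicate 1 and 1.70 without control replicate 3.

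The genes whose levels followed those of the 6 most closely were ranked by Pearson's r of log2(CPM + 1) over the 6 libraries, among 1521 genes averaging 5 CPM or more whose range was at least 1 on that scale. All of these r values rest on the separation of the replicate 3 libraries, and 554 of the genes had an r with Txnip over 0.95. The closest to Txnip were Resp18, Eml2, Ndufaf5, Rtkn2 and Sat1, each with r = 0.999. Resp18, an endocrine secretory granule protein, gave 1062, 1031 and 2291 CPM among the controls. Sat1, the spermidine acetyltransferase, gave 16.5, 17.7 and 89.8 CPM in the same libraries. Closest to Arrdc4 were Khk, Acbd4 and Cyp2d22 with r of 0.997, 0.997 and 0.996. Closest to Mlxipl were Slc17a9, Ttc39a and Myh9, each with r = 0.999. Slc17a9, the vesicular nucleotide transporter, gave 17.3, 15.1 and 8.14 CPM among the controls.

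Cell type markers were read in the same libraries. Of 10 beta-cell markers, 9 had a mean of at least 1 CPM. Their summed level was 108496, 97449 and 131268 CPM among the controls and 102727, 100740 and 114405 CPM after activation, with Ins2 the most abundant. The sum was highest in the replicate 3 libraries of both conditions, and Ins2 carried this. The other beta-cell markers together gave 44096, 41047 and 28268 CPM among the controls and 38463, 37869 and 32528 CPM after activation, lowest in replicate 3. The insulin gene Ins1 went the other way from that sum. It took 0.458% of all counts in control replicate 3 and 0.474% in Thada-activated replicate 3, against 0.226% to 0.293% in the other libraries. The alpha-cell markers Gcg, Irx2 and Ttr, of which Ttr led, summed to 1324, 1207 and 673 CPM among the controls and to 1286, 1280 and 810 CPM after activation. Without Ttr the sum was 26.2, 22.3 and 18.6 CPM among the controls and 21.1, 24.4 and 22.7 CPM after activation.

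Hormones of other islet cells were read next. The delta-cell hormone Sst gave 156, 129 and 68.9 CPM among the controls and 143, 131 and 57.9 CPM after activation. Ppy, the hormone of PP cells, gave 19.7, 17.8 and 27.9 CPM among the controls and 22.5, 21.6 and 38.9 CPM after activation. Ghrl, of epsilon cells, stayed under 0.12 CPM.

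Markers of cells outside the islet were low. The acinar markers Cela2a and Cel summed to at most 0.117 CPM. Cpa1, Ptf1a, Cftr, Pdgfra and Ptprc were not analysed here. Some of these low levels differed between the libraries. Krt19, of duct cells, gave 0.527, 0.524 and 0.344 CPM among the controls and 2.36, 1.49 and 1.02 CPM after activation. Col1a1, of stroma, gave 1.41, 1.28 and 3.21 CPM and then 1.01, 1.78 and 3.47 CPM, and was highest in replicate 3 of both conditions. Without Col1a1 the stroma sum did not follow it. That sum was 1.23, 1.45 and 0.803 CPM among the controls and 1.91, 1.67 and 1.93 CPM after activation. Pecam1, of endothelium, was also highest in replicate 3 of both conditions. It gave 0.351, 0.349 and 1.26 CPM among the controls and 0.338, 0.460 and 1.08 CPM after activation. Cd68, of immune cells, gave 1.11, 0.582 and 0.401 CPM and then 1.24, 0.977 and 0.569 CPM, lowest in replicate 3. In the duct, stroma and immune lists 1 gene each, the one named here, was called in the replicate 3 contrast, of 1, 2 and 1 tested. In the islet lists 5 of 9 tested beta-cell markers and 1 of 3 alpha-cell markers were called. The 1 tested marker of delta cells and the 1 of PP cells were called too. Of all tested genes 31.1% were called, and nothing is read from these counts. Rbfox3, of neurons, reached 0.229 CPM. The part of these markers, of Ttr, of Sst and of the share of Ins2 in the levels of the 6 genes was not tested. In such bulk RNA, fewer cells making a transcript and less of it in each cell cannot be told apart.

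Promoter sequence was examined because Txnip and Arrdc4 moved together in these libraries and are known targets of the factors that Mlxipl and Mlxip encode. All 6 genes had RefSeq promoter windows of GRCm38.p6, 9 windows in all, from 250 bases before to 50 bases after a transcript start. A strict form of the motif that ChREBP and Mlx bind was searched on both strands, as CACGNG repeated after 5 bases. Single CACGTG and CACGAG motifs were searched likewise. Looser forms of the repeated motif were not searched, so its absence from a window does not exclude them. A CACGAG or CACGTG can be part of the repeated motif. The repeated motif was in 16 of 32851 windows, 0.0487%, and CACGTG was in 7.15% and CACGAG in 6.47% of all windows.

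Among the 6 genes the repeated motif was in the Txnip window alone. Txnip lies on chromosome 3 of GRCm38 at chr3:96557957-96561857, on the plus strand. The 250 bases before its start are shown because they hold the motif, at chr3:96557872-96557888, 85 to 69 bases before the start, with its capitals marking both copies of CACGNG (chr3:96557707-96557956, plus strand, 5′ to 3′).
Txnip: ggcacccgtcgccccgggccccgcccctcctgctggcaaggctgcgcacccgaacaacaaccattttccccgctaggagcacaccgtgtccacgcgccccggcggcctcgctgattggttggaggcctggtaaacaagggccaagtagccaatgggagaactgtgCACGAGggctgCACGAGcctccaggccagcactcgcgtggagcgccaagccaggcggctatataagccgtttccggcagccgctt

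Arrdc4 lies on the minus strand at chr7:68736994-68749238. Its window held no repeated motif and a single CACGTG, 193 to 188 bases before the start, at chr7:68749426-68749431. The 250 bases before the start are shown with that motif in capitals (chr7:68749239-68749488, minus strand, 5′ to 3′).
Arrdc4: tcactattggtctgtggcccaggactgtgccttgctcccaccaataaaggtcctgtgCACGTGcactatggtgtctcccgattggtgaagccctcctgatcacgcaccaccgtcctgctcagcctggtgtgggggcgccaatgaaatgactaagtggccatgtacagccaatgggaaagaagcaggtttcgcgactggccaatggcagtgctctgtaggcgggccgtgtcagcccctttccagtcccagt

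Mlxipl and Mlx, lower in the replicate 3 libraries, each held a CACGTG as well. In Mlxipl, at chr5:135089890-135139768, it lay 98 to 93 bases before the upstream start, in a window that also held 1 CACGAG, while the window of the downstream start held none of the motifs. In Mlx, at chr11:101086707-101092207, it lay 40 to 35 bases before a transcript start. Both stretches are shown to place these E-boxes beside those of Txnip and Arrdc4, with capitals marking CACGTG (chr5:135089762-135089827 and chr11:101087220-101087285, plus strand).
Mlxipl: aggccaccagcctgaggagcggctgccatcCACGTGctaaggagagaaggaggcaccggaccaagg
Mlx: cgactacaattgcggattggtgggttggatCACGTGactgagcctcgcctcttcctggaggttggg

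No motif of these kinds was in the windows of Arrdc3 and Mlxip. Of tested genes, 9 had a window with the repeated motif, and 2 of them were called in the replicate 3 contrast, both higher, or 22.2% beside 31.1% of all tested genes called and 15.7% called higher. These were Txnip, which this contrast chose, and Nfkb2, an NF-κB subunit named after its value was seen, with a log2 fold change of 0.71 ± 0.12 (SE). The median of the 9 was 0.06, against 0.00 for all tested genes. CACGTG was in 8.49% of the windows of genes higher in replicate 3, 10.3% of those of genes lower and 9.76% of those of tested genes. CACGAG was in 9.09%, 7.71% and 8.33% of the same windows. A match describes these letters only.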

How the data were processed

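RNA of 3 control and 3 Thada-activated MIN6 libraries was sequenced on the BGISEQ-500. The authors deposited estimated counts for 16640 genes on GRCm38, and the submitters' processing notes name Bowtie2, RSEM and DESeq2. FPKM values, in which counts are divided by gene length and library size, were deposited too. Columns with the authors' own fold changes and p-values were not used. One unreadable line of the series table was left out. Whether counting used strand is not given in the sources used here.

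Estimated counts were rounded to whole numbers. Genes were filtered with filterByExpr, scaled by TMM and tested with edgeR 4.0.16 (glmQLFit, robust, and glmQLFTest) in R 4.3.3, with Benjamini-Hochberg adjustment over all 12516 tested genes. A gene was called at an adjusted p under 0.05 and a fold change over 1.5. The fits had condition alone, condition with replicate 3, both with their product, or, as an alternative, condition with the replicate number as a block. Code was tested on simulated counts, which for the condition fit held no replicate 3 difference. That test therefore does not measure how many differences the condition fit could miss in these libraries. Alternatives used DESeq2 1.42.0, limma 3.58.1 on log2(FPKM + 1), other filters and library sizes, and each library left out.

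Libraries with the same replicate number deviated together from their condition means, with correlations over genes of 0.781, 0.771 and 0.905 for numbers 1, 2 and 3, all over 0.1. The replicate 3 libraries stood apart in both conditions, so every combination of numbers 1 and 2 passed that threshold. The check therefore could not tell whether numbers 1 and 2 were pairs. The labels' numbers were nevertheless taken as pairs and as the block. Crossed pairs correlated more closely than the matched pairs of numbers 1 and 2. They were control replicate 1 with Thada-activated replicate 2 (0.799) and control replicate 2 with Thada-activated replicate 1 (0.793). No pair of libraries agreed within sampling noise, the chi-square per degree of freedom being 1.83 or more.

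The 6 genes and the lists were chosen with earlier results of these data known. Genes named were the 6, Thada, up to 4 called genes per list with the largest change in replicate 3 and a mean of at least 1 CPM (all genes in lists of 5 or fewer), the gene of lowest p per list between conditions, the genes most like Txnip (5), Arrdc4 (3) and Mlxipl (3), and the most abundant marker of each cell class. Txn1, Slc2a4, Nfkb2, other markers and genes said to be untested or not analysed were named outside this rule, after their values were seen. Promoter windows came from RefSeq, GRCm38.p6, and comparison of the proteins was not run. Some listed genes are not reported here.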

Additional observations from a re-analysis of the deposited data

Results flagged for a closer look

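The product term of condition and replicate 3, which rests on 1 replicate 3 library in each condition, had an adjusted p under 0.05 with edgeR for 871 of 12516 tested genes (6.96%) and 6 of the 84 listed genes (7.14%). Of the genes named by rule these were Thada and Bhlhe40. The other listed genes, named after their values were seen, were G6pc2 (0.51), Hnf4a (0.55), Mid1ip1 (-0.43), Hcfc1 (-0.40) and Txnrd1 (-0.28), in log2 units. Thada was lower in replicate 3 than in replicates 1 and 2, by a log2 difference of -0.73 in control and -0.21 in Thada-activated cells, and the fitted difference between conditions was 0.52 (adjusted p 0.00935). The drop was thus smaller in the Thada-activated library. Bhlhe40, listed among the ChREBP and MondoA targets, gave 0.38 (adjusted p 0.00892), with replicate 3 at 167 CPM against 68.7 and 75.1 CPM in control cells and at 177 CPM against 57.0 and 60.5 CPM in Thada-activated cells. The differences of all 7 genes were under the fold threshold of 1.5 and were not called. With 1 library on each side, a difference between these libraries and one between the conditions cannot be told apart.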

How the results depend on the processing

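The count of genes called between conditions was 0 with condition alone under the other scalings, filters and limma, and without each library in turn (0 to 0). It was 5 with DESeq2, 19 with the replicate block and 68 without both replicate 3 libraries. The replicate block changed no call among the 6 genes and the listed genes. Thada passed the thresholds with DESeq2 (1.13), with the block (1.15) and without both replicate 3 libraries (0.99). Without each library in turn Prdx5 ranged from -0.11, reversed without Thada-activated replicate 3, to 0.28.

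The replicate 3 count was 8592 without a fold threshold and 3648 to 4081 without each library in turn. It was 2835 with limma on FPKM, 3636 with at least 10 counts in every library and 4243 with no filter. The product-term count was 42 with DESeq2. Without each library in turn the replicate 3 log2 fold change ranged from 3.60 to 3.78 for Txnip, 0.16 to 0.46 for Arrdc3 and -1.11 to -0.85 for Mlx. With limma on FPKM it was 3.57 for Txnip, -0.29 for Mlxip and -0.96 for Mlx. For Mlx it was -0.996 with no filter and -0.94 without the 20 top genes. Between conditions, without each library in turn, the value ranged from -2.16 to 2.47 for Txnip, -0.89 to 0.58 for Arrdc4, -0.25 to 0.42 for Mlxipl, -0.34 to 0.17 for Mlx and -0.18 to 0.04 for Mlxip, changing sign for all 5, and from -0.42 to -0.15 for Arrdc3. Of the values of the 6 genes, 59 in the replicate 3 fit and 82 in the condition fit moved by less than 1 SD of replicates. In the condition fit that SD includes the replicate 3 libraries, and the 82 include the sign changes of Arrdc4, Mlxipl, Mlx and Mlxip. Those of Txnip without control replicate 1 and without control replicate 2 are among the 82 as well. Of the values of listed genes named by rule in the replicate 3 fit, 15 lost the call and 261 kept direction and side of the threshold. Slc2a4 is outside these counts and lost its call without Thada-activated replicate 3 and with limma on FPKM. Causes were not tested. Counts of 63 to 219 limit Arrdc4.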
